A study of Rattus norvegicus with 12 samples.

Results

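Nuclear genes for complex III, complex IV and ATP synthase, the last steps of mitochondrial oxidative phosphorylation, were compared between failing and control rat hearts. The genes were chosen by name: every probe set of the array annotated to exactly 1 gene symbol that starts with Uqcr, Atp5, Cox4, Cox5, Cox6, Cox7 or Cox8, or that equals Cyc1 or Cycs. This gave 46 probe sets for 41 genes, of 14217 genes on the array with such an annotation. Of the 41 genes, 8 belong to complex III (Cyc1 among them), 17 to complex IV and 16 to ATP synthase. No probe set with 1 symbol stood for Cycs, Cox7a2, Uqcrb, Atp5mc1 or Atp5mc2. A further 7 probe sets with several symbols, 1 of them fitting the names, were left out.

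Messenger RNA was measured in 6 hearts labelled failing and 6 labelled control, with 1 array of 1 colour for each heart, and the labels call them biological replicates. The series concerns how the hearts of SHR animals, the spontaneously hypertensive inbred rat, pass from compensated hypertrophy to systolic heart failure. The sources used here do not give the strain of the control animals, the age and sex of either group, any treatment of these 12 animals or the heart chamber. Hearts from 2 further groups, failing with captopril and failing with captopril and butyrate, are not analysed here. The tissue field reads heart, although the description mentions a cell line.

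Complex III passes electrons from ubiquinol to cytochrome c, and complex IV, cytochrome c oxidase, passes them on to oxygen. Both pump protons out of the mitochondrial matrix, and ATP synthase uses their return to make most of the ATP of a beating heart. The subunits that carry out electron transfer in complex IV, cytochrome b of complex III and part of the proton channel of ATP synthase are encoded by mitochondrial DNA, while all the genes described here are nuclear. Several complex IV subunits exist in a form made in heart and skeletal muscle and a form made in most tissues.

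Nuclear genes for these complexes are known targets of the transcription factors NRF1, GABPA (of the ETS family), the estrogen-related receptors (ERR) and YY1. The RefSeq table of assembly GRCr8 held a promoter of 300 bases, from 250 bases before to 50 after the gene start, for 34 of the 41 genes, 32 of them among the brighter genes defined below. Of these 32 promoters, 17 (53.1%) held at least 1 of 4 motifs on either strand, against 15.7% of all 33469 promoters. The 33469 were not limited to genes on the array or to brighter genes. The shares therefore compare unlike sets, and the part of expression level in them was not tested. The NRF1 motif (GCGCA, any 1 base, then GCGC) was in 6 (18.8%, against 4.25% of all promoters) and the ETS motif CCGGAAG in 11 (34.4%, against 8.75%). The YY1 motif AAGATGGC was in 6 (18.8%, against 3.17%) and the ERR motif TNAAGGTCA in 1 (3.12%, against 1.2%). The motifs do not contain one another, and a match describes letters only.

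The promoters of 4 genes are printed, with motif letters in capitals: Uqcrq, Cox7a1 and Atp5mpl had the lowest adjusted p of their complexes without control replicate 4 in the comparison that follows, and Cox5b came next in complex IV. Uqcrq (chr10:38089929-38090228, minus strand) has its ETS motif 22 bases before the start, Cox5b (chr9:46417587-46417886, plus strand) has one 14 bases before it, and Atp5mpl (chr6:136845591-136845890, minus strand) has an NRF1 motif 60 bases before it. Cox7a1 (chr1:94568966-94569265, plus strand), the heart and muscle isoform, holds none of the 4 in this window, and neither do the promoters of Cox6a2 and Cox8b.
Uqcrq: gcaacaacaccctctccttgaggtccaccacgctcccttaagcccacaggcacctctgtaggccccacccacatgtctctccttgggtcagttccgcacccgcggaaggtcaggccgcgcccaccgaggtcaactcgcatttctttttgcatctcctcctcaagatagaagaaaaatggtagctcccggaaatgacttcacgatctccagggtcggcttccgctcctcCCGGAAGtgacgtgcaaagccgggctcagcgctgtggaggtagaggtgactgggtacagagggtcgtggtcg
Cox5b: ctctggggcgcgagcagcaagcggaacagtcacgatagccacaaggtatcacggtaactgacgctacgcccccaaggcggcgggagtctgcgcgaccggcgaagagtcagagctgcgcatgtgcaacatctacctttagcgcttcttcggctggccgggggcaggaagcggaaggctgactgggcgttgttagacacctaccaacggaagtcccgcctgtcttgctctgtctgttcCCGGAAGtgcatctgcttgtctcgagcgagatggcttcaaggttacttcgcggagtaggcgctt
Atp5mpl: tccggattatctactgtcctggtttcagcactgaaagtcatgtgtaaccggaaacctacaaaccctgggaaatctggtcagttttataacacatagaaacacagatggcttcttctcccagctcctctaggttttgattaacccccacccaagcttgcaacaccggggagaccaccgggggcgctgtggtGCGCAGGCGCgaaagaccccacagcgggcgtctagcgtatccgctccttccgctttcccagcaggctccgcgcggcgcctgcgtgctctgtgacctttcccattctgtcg
Cox7a1: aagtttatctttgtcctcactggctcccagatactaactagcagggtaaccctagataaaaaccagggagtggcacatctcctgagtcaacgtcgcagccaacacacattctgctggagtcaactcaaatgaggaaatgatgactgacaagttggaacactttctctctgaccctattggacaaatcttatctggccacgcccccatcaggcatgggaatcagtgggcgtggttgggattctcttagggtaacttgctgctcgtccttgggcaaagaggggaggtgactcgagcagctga

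Values are log2 of the deposited intensity, and differences are failing minus control on that scale. Where a gene had several probe sets, the brightest stood for it. The brighter genes are the 7109 with a mean at or above 8.21 (an intensity of 297), and 37 of the 41 genes are among them. Most lie near the top of the scale: 33 have a mean of 13 or more and 27 of 14 or more, and the highest intensity on the arrays was 79914. The other 4 (Cox4i2, Cox6b2, Cox6c-ps1 and Cox7b2) are dim. Each array had been scaled to the same trimmed mean, 500.19 to 500.23, and array medians lay between 120.8 and 144.2. The labelled tissue was borne out by 9 of 9 measured cardiomyocyte markers among the brighter genes.

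1 control heart stood apart. Control replicate 4 was the lowest of the 6 control hearts for 37 of the 37 brighter members. It was the lowest control for 33.5% of all brighter genes, but far more often among genes as bright as most members. Of 127 other genes with a mean of 14 or more outside complexes I and II, it was the lowest control for 91. Of 214 other genes with a mean of 13 to 14, it was the lowest for 145. The median of the 37, each gene centred on its mean over the 12 hearts, was 0.01, -0.01, -0.40, -0.02, 0.14 and -0.32 in failing replicates 1 to 6. In control replicates 1 to 6 it was 0.27, 0.24, 0.23, -0.40, 0.14 and 0.11. Failing replicates 3 and 6 and control replicate 4 were thus low together, and failing replicate 5 was as high as the lower of the remaining control hearts. Among the failing hearts, replicate 3 was the lowest for 27 genes and replicate 6 for 6, and replicate 5 was the highest for 29. Results are therefore given with and without control replicate 4. As this heart was singled out because its values are low, the fit without it is not independent of the values it tests.

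**Figure D1:**
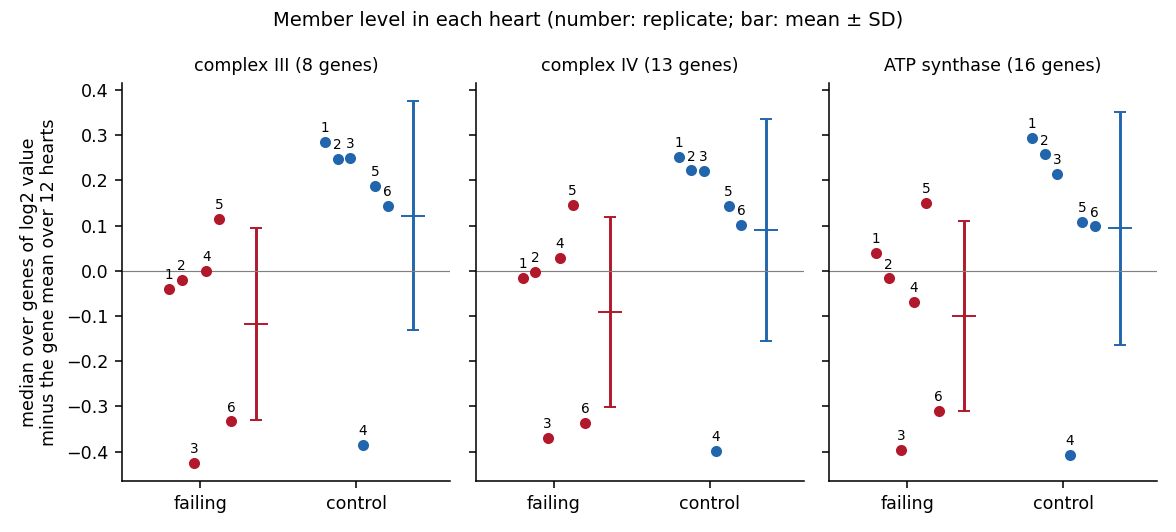
Median over the brighter genes of each complex of the log2 value minus the gene's mean over 12 hearts (y axis, log2), for the 6 failing (left) and 6 control (right) hearts; numbers are replicates and bars the mean and SD. Control replicate 4, between -0.41 and -0.39, lies with failing replicates 3 and 6 in all 3 panels, and the other 5 control hearts lie at 0.10 or above for complex IV and at 0.14 or above for complex III.

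With all 12 hearts, subunit genes of all 3 complexes had lower means in failing hearts by a small amount, and none passed the test. The median difference was -0.22 for the 8 complex III genes, -0.17 for the 17 complex IV genes and -0.22 for the 16 ATP synthase genes, against -0.03 for all 14217 genes. Of the 37 brighter members 34 had a difference below 0, whereas 54% of all brighter genes did. In limma 0 of 37 were called lower or higher at an adjusted p of 0.05, where 4.73% of the brighter genes were called lower and 5.4% higher. The members' adjusted p ran from 0.0621 to 0.996. An unadjusted p under 0.05 was found for 7 of the 37 (18.9%), all lower, beside 16.4% of the brighter genes. The exact rank-sum permutation test called 0 of all 7109 brighter genes in either direction, and so says nothing about the members. Over all 14217 genes limma called 0 members and 0 genes of any kind (0%), with 6 members at an unadjusted p under 0.05 (5 lower and 1 higher, against 9.95% and 9.12% of genes). No member's groups were free of overlap, as were 1.13% of the brighter genes downwards and 2.11% upwards. In bulk tissue, fewer cells of a type and less RNA in each cell cannot be told apart.

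Without control replicate 4, 13 of the 37 brighter members (35.1%) were lower in failing hearts and 0 were higher, against 13.5% and 10.2% of the brighter genes. They were 5 of 8 complex III genes, 2 of 13 complex IV genes and 6 of 16 ATP synthase genes. The median differences were then -0.34, -0.25 and -0.32 for the 3 complexes, in the same order, and -0.02 for all genes. For 12 of the 37 all 6 failing hearts lay below all 5 remaining control hearts, which held for 7.4% of the brighter genes, and 0 lay wholly above, against 4.36%. Over all 14217 genes 3 members were lower (Atp5mpl, Uqcrq and Cox7a1) and 1 was higher (Cox6b2), against 2.69% and 2.07% of genes. Differences between the complexes were not tested. With every probe set tested by itself, 0 of 41 brighter member probe sets were called with all hearts, against 1.48% of 15521 brighter probe sets lower and 2.76% higher. Without control replicate 4, 7 of the 41 were lower and 0 higher, against 6.75% and 6.67%. Leaving out 1 further heart in turn, 5 of the 13 calls were kept in each of the 11 fits: Atp5f1c, Atp5mpl, Cox5b, Cox7a1 and Uqcrq. The number of members called lower in those fits ran from 5 (control replicate 1 out) to 25 (failing replicate 5 out).

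**Figure D2:**
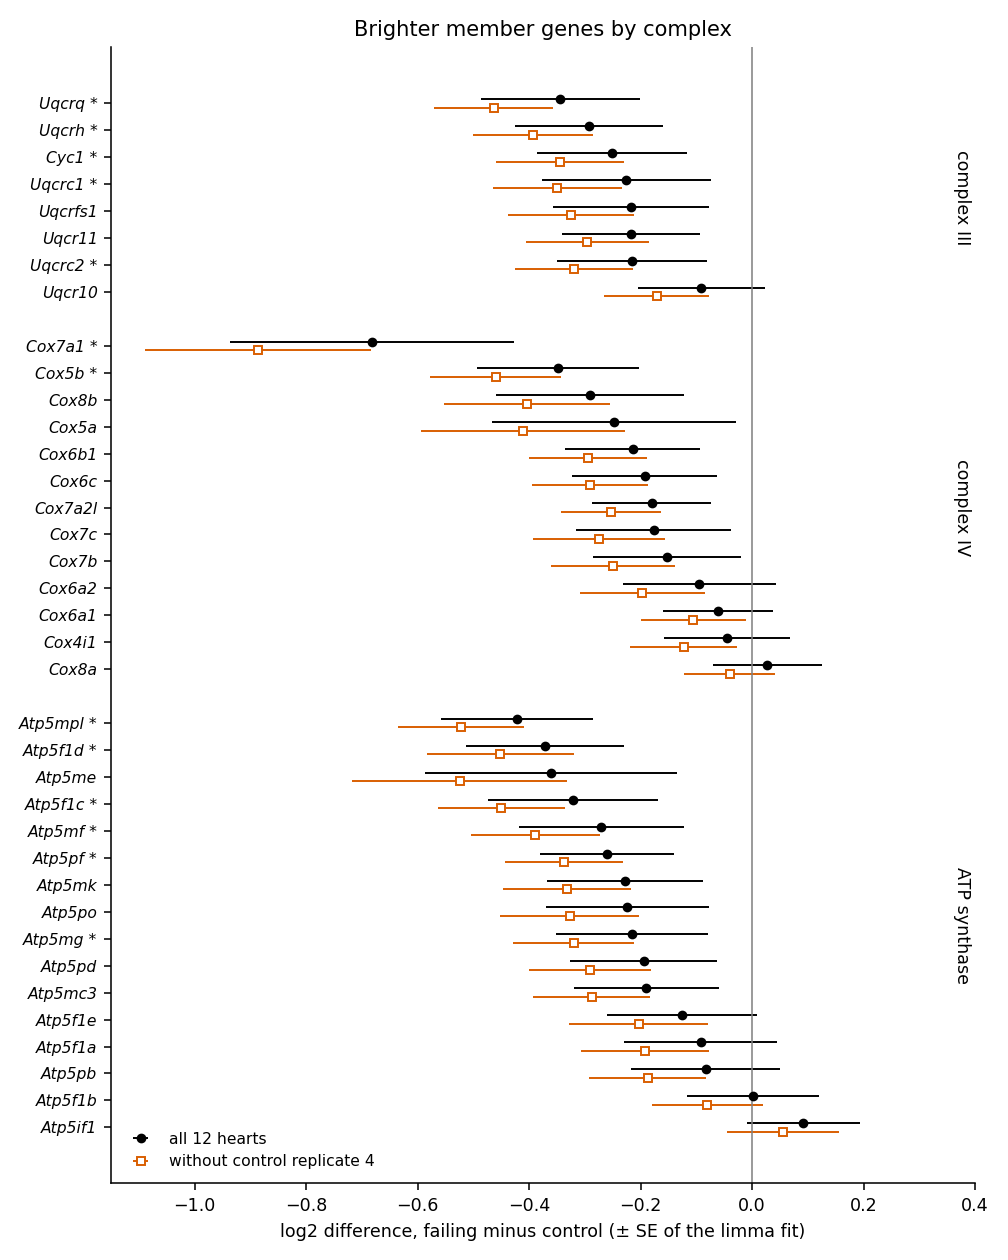
Log2 difference, failing minus control (x axis), of the 37 brighter members by complex, with all 12 hearts (filled circles) and without control replicate 4 (open squares); bars are the SE of the limma fit and asterisks mark an adjusted p under 0.05 without that heart. Nearly all points lie left of 0, 34 of 37 with all hearts and 36 of 37 without control replicate 4.

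In complex III, each of the 8 genes had a lower mean in failing hearts. Uqcrq, a small membrane subunit, had a lowest, median and highest log2 intensity of 13.96, 14.35 and 14.50 in failing hearts, against 14.05, 14.75 and 14.82 in control hearts. Control replicate 4 was its lowest control heart, and the other 5, from 14.69, lay above every failing heart. The difference was -0.34 ± 0.14 (SE, n = 6 each, adjusted p = 0.123), and -0.46 ± 0.11 without control replicate 4 (adjusted p = 0.0107).

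Uqcrh, the acidic hinge protein beside cytochrome c1, had 14.24, 14.57 and 14.81 in failing hearts (lowest, median and highest), against 14.31, 14.90 and 14.98 in control hearts. Its difference was -0.29 ± 0.13 (adjusted p = 0.156), and -0.39 ± 0.11 without control replicate 4 (adjusted p = 0.0222), a call lost in 1 of 11 further fits, that without control replicate 1. Cyc1, cytochrome c1 itself, had 13.998, 14.29 and 14.67 in failing hearts, against 14.09, 14.66 and 14.73 in control hearts. Failing replicate 5 was high enough to overlap the control hearts here, so 5 of 6 failing hearts lay below the other 5 control hearts. Its difference was -0.25 ± 0.13 (adjusted p = 0.225), and -0.35 ± 0.11 without control replicate 4 (adjusted p = 0.0447).

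The core proteins Uqcrc1 and Uqcrc2 form the matrix side of the complex. Uqcrc1 had 14.02, 14.40 and 14.56 in failing hearts, against 13.94, 14.67 and 14.77 in control hearts, with a difference of -0.23 ± 0.15. Uqcrc2 had 14.10, 14.43 and 14.60 in failing hearts, against 14.07, 14.68 and 14.79 in control hearts, with a difference of -0.22 ± 0.13. In both, control replicate 4 was below every failing heart and the other control hearts were above every failing heart. Without it both were called (adjusted p = 0.0441 and 0.0445), with differences of -0.35 and -0.32, and each call was kept in 2 of the 11 further fits. A second bright Uqcrc2 probe set gave a difference of -0.01, so the probe sets of this gene disagree. Uqcrfs1, the Rieske iron-sulfur protein, had 14.24, 14.62 and 14.74 in failing hearts, against 14.22, 14.82 and 14.97 in control hearts. Its groups did not overlap without control replicate 4, yet its adjusted p was then 0.0525. The small subunits Uqcr10 and Uqcr11 had differences of -0.09 and -0.22 and were not called in either fit.

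Of the 13 brighter complex IV genes, 12 had a difference below 0 with all hearts and 13 of 13 without control replicate 4. Cox5b, the zinc-binding subunit on the matrix side, had 14.19, 14.63 and 14.81 in failing hearts, against 14.35, 14.98 and 15.12 in control hearts. Its 6 failing hearts all lay below the 5 control hearts other than replicate 4, the lowest of which was at 14.94. The difference was -0.35 ± 0.15 (adjusted p = 0.126), and -0.46 ± 0.12 without that heart (adjusted p = 0.0162).

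Cox7a1, the heart and skeletal muscle form of subunit 7a, had the difference farthest from 0 among the 37, in both fits. Its log2 intensity was 9.28, 9.70 and 10.45 in failing hearts (lowest, median and highest), against 9.45, 10.67 and 10.77 in control hearts. Failing replicates 1, 3 and 6 and control replicate 4 lay together at the low end, and the other 5 control hearts were within 10.61 to 10.77. The difference was -0.68 ± 0.26 (a fold of 0.624, adjusted p = 0.0941), and without control replicate 4 it was -0.89 ± 0.20 (a fold of 0.541, adjusted p = 0.0106). The probe set is far dimmer than most others here, and its counterpart Cox7a2 had none of its own.

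The other 11 brighter complex IV genes were not called in either fit. Cox6c, Cox7b and Cox7c, small membrane subunits, had differences of -0.19, -0.15 and -0.18. Cox5a, which binds close to Cox5b in the enzyme, had a difference of -0.25 ± 0.22. Cox7a2l, known for joining complex III and complex IV into supercomplexes, had a difference of -0.18 ± 0.11, and its adjusted p without control replicate 4 was 0.0559.

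**Figure D3:**
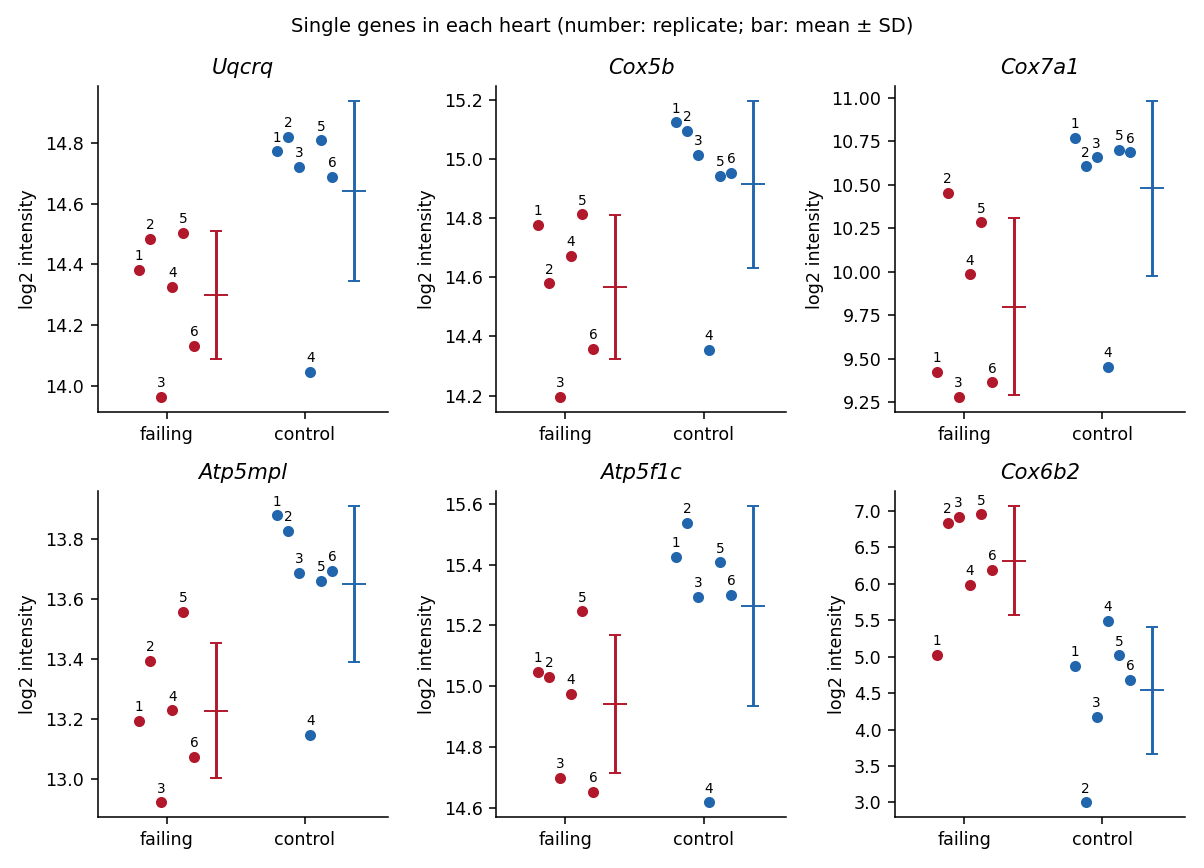
Log2 intensity (y axis, a separate scale for each gene) of 6 genes in the 6 failing (left) and 6 control (right) hearts; numbers are replicates and bars the mean and SD. In Uqcrq, Cox5b, Cox7a1 and Atp5mpl control replicate 4 lies within the range of the failing hearts, in Atp5f1c below all of them, and in these 5 genes the other 5 control hearts lie above all 6 failing ones; in Cox6b2 the failing hearts are the higher ones.

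In ATP synthase, 14 of 16 genes had a difference below 0 with all hearts. Atp5mpl, a small proteolipid of the membrane part, had 12.92, 13.21 and 13.56 in failing hearts, against 13.15, 13.69 and 13.88 in control hearts. Control replicate 4 was in the range of the failing hearts, and the other 5, from 13.66, were above all of them. The difference was -0.42 ± 0.14 (a fold of 0.747, adjusted p = 0.0621), and -0.52 ± 0.11 without control replicate 4 (a fold of 0.697, adjusted p = 0.00906).

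In the head and central stalk of the enzyme, 2 of 5 genes were called without control replicate 4. Atp5f1c, the gamma subunit that turns inside the head, had 14.65, 15.00 and 15.25 in failing hearts, against 14.62, 15.35 and 15.54 in control hearts. Its difference was -0.32 ± 0.15 (adjusted p = 0.174), and -0.45 ± 0.11 without control replicate 4 (adjusted p = 0.0155). Atp5f1d, the delta subunit of the same stalk, had 13.14, 13.39 and 13.83 in failing hearts, against 13.41, 13.78 and 14.18 in control hearts. Failing replicate 5 overlapped the control hearts there, and its difference was -0.37 ± 0.14 (adjusted p = 0.0984), or -0.45 ± 0.13 without control replicate 4 (adjusted p = 0.0278). Atp5f1a and Atp5f1b, the alpha and beta subunits of the head, had differences of -0.09 ± 0.14 and 0.00 ± 0.12 with all hearts, and -0.19 and -0.08 without control replicate 4. Atp5f1e, the epsilon subunit of the stalk, had -0.13 ± 0.13. Differences between these subunits were not tested.

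Of the peripheral stalk, Atp5pf (coupling factor 6) had 13.84, 14.13 and 14.31 in failing hearts, against 13.96, 14.41 and 14.59 in control hearts. Its difference was -0.26 ± 0.12 (adjusted p = 0.163), and -0.34 ± 0.11 without control replicate 4 (adjusted p = 0.036). The other stalk genes Atp5pb, Atp5pd and Atp5po had differences of -0.08, -0.19 and -0.22 and were not called. Of the membrane part, Atp5mf (subunit f) had 13.98, 14.41 and 14.61 in failing hearts, against 13.998, 14.69 and 14.80 in control hearts, and Atp5mg (subunit g) had 14.09, 14.39 and 14.58 in failing hearts, against 14.04, 14.63 and 14.77 in control hearts. Neither overlapped once control replicate 4 was left out, when their differences were -0.39 ± 0.12 (adjusted p = 0.0296) and -0.32 ± 0.11 (adjusted p = 0.0481). With all hearts they were -0.27 ± 0.15 and -0.21 ± 0.14. Atp5mc3 of the rotor ring, Atp5me and Atp5mk had differences of -0.19, -0.36 and -0.23, with an adjusted p without control replicate 4 between 0.0509 and 0.0624.

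Atp5if1, the inhibitor that stops ATP synthase from running backwards, had a difference of the other sign at its brightest probe set. Its log2 intensity was 11.86, 11.96 and 12.38 in failing hearts, against 11.74, 11.93 and 12.06 in control hearts, and a difference of 0.09 ± 0.10. The groups overlapped, and its difference of 0.06 without control replicate 4 made it the single brighter member not below 0 in that fit. Failing replicate 1, at 12.38, was the highest heart, and the other failing hearts, at 11.86 to 12.01, lay within the control range. A dimmer Atp5if1 probe set, at a mean of 7.12, gave a difference of -0.20 with all hearts. The dimmest, at a mean of 5.76, gave 0.09, so the probe sets of this gene differ in sign.

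Most of these genes varied together from heart to heart. After the group means were subtracted, the median Pearson correlation over the 666 pairs of the 37 genes was 0.91 across the 12 hearts, with a range from -0.12 to 1.00. For 29 genes the correlation with the median of the others was above 0.9. The lowest were Atp5if1 at 0.33, Cox7a2l at 0.46, Cox6a1 at 0.54 and Cox8a at 0.68. These are descriptions: the points share arrays, scaling and the bright end of the scale, and control replicate 4 is among them.

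Tissue isoforms of the same subunit were compared within each array, as the first isoform minus the second in log2, by an exact two-sided permutation test of 6 against 6 hearts whose smallest p is 0.00216. The p-values were adjusted over 4 pairs. The differences between isoforms within a heart compare 2 probe sets, so only their change between groups has meaning.

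Cox6a2, the heart and muscle form of subunit 6a, had 14.79, 15.20 and 15.30 in failing hearts, against 14.67, 15.30 and 15.36 in control hearts, and its widespread counterpart Cox6a1 had 13.14, 13.44 and 13.52 in failing hearts, against 13.22, 13.49 and 13.60 in control hearts. The change in Cox6a2 minus Cox6a1 was -0.03 (95% interval -0.32 to 0.25, exact p = 0.807, adjusted p = 0.807). Cox8b, the heart and muscle form of subunit 8, had 14.25, 14.87 and 15.10 in failing hearts, against 14.46, 15.12 and 15.24 in control hearts. Cox8a, its widespread form, had 13.51, 13.66 and 13.76 in failing hearts, against 13.29, 13.67 and 13.83 in control hearts. Cox8b minus Cox8a was 1.09 ± 0.35 in failing hearts and 1.40 ± 0.14 in control hearts (SD, n = 6 each). Failing replicates 3 and 6, at 0.60 and 0.69, made most of that spread, and control replicate 4 at 1.17 was the lowest control heart. The change was -0.32 (95% interval -0.66 to 0.03, exact p = 0.0606, adjusted p = 0.121), and -0.36 without control replicate 4 (exact p = 0.039, adjusted p = 0.0779).

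The other pairs set a form that the heart makes little of against the main form. Cox4i2, known from lung and from low oxygen, had 7.39, 7.86 and 8.09 in failing hearts, against 7.85, 7.91 and 8.36 in control hearts, and Cox4i1, its main form, had 14.82, 15.14 and 15.22 in failing hearts, against 14.71, 15.15 and 15.24 in control hearts. Cox4i2 minus Cox4i1 changed by -0.12 (95% interval -0.36 to 0.11, exact p = 0.264, adjusted p = 0.352). Cox6b2, known as the testis form of subunit 6b, was the 1 member called higher over all genes without control replicate 4, with 5.03, 6.51 and 6.95 in failing hearts, against 3.00, 4.77 and 5.49 in control hearts. Failing replicate 1 and control replicates 4 and 5 were close together, and the remaining failing hearts were all above the control hearts. As intensities these are 32.6 to 124 in failing hearts and 8 to 44.9 in control hearts, where 28.1% to 31.7% of probe sets on each array lie below 50.

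Over all genes, Cox6b2 had a difference of 1.78 ± 0.44 (adjusted p = 0.0878), and 1.97 ± 0.44 without control replicate 4 (adjusted p = 0.0435). Its counterpart Cox6b1, which joins the enzyme's dimer on the intermembrane side, had 14.34, 14.68 and 14.84 in failing hearts, against 14.42, 14.88 and 14.97 in control hearts. Cox6b2 minus Cox6b1 changed by 1.99 (95% interval 0.84 to 3.14, exact p = 0.00433, adjusted p = 0.0173), and by 2.26 without control replicate 4 (adjusted p = 0.0173). The dim Cox7b2, known from testis as well, and the pseudogene Cox6c-ps1 had differences of 0.16 ± 0.50 and 0.10 ± 0.20.

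**Figure D4:**
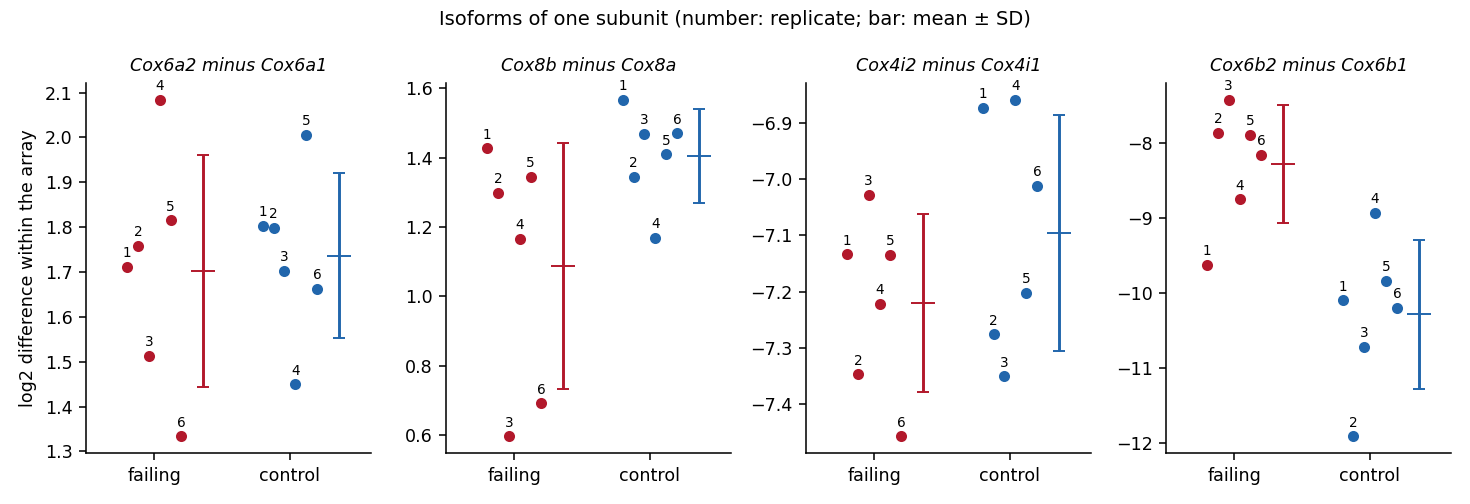
Within-array log2 difference between the isoforms of a subunit (y axis, a separate scale for each pair) in the 6 failing (left) and 6 control (right) hearts; numbers are replicates and bars the mean and SD. Cox6b2 minus Cox6b1 is higher in failing hearts, except that failing replicate 1 lies below control replicate 4, though above the other control hearts. In Cox8b minus Cox8a failing replicates 3 and 6 lie low.

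Genes that build these complexes were called with all 12 hearts where the subunits were not. Of 27 brighter assembly factors 6 were lower in failing hearts and 0 higher, beside 4.73% and 5.4% of all brighter genes, and 27 of 27 had a difference below 0 (54% of all brighter genes), with a median of -0.37. Ndufa4, a complex IV subunit under another name, was in that list and is left out of these counts; its difference was -0.15 and it was not called in either fit. Bcs1l, which inserts the Rieske protein into complex III, was lower, with a difference of -0.80 ± 0.21 (adjusted p = 0.0252). Its log2 intensity was 8.49, 9.12 and 9.75 in failing hearts, against 9.67, 9.89 and 10.25 in control hearts, so the groups overlapped at 1 end. Of the complex IV factors, Cox10, the farnesyltransferase of heme a synthesis, was lower, with a difference of -0.70 ± 0.18 (adjusted p = 0.0249). Coa3, which stabilises newly made COX1, had a difference of -0.50 ± 0.11 (adjusted p = 0.0185), and its failing hearts, at 11.46 to 12.05, lay below all 6 control hearts, at 12.18 to 12.45.

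Pet100 and Higd1a, also of complex IV, were lower, with differences of -0.62 ± 0.17 and -0.46 ± 0.13 (adjusted p = 0.0284 and 0.0329). Fmc1, needed for assembly of the ATP synthase head, was lower, with a difference of -0.55 ± 0.14 (adjusted p = 0.0257). Without control replicate 4, 21 of the 27 were lower (77.8%, beside 13.5% of all brighter genes), made up of 4 of 5 for complex III, 15 of 18 for complex IV and 2 of 4 for ATP synthase. The difference between subunits and assembly factors was not tested.

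Of 12 brighter regulators of these genes, 2 were lower with all hearts, beside 4.73% of all brighter genes. Ppargc1b, a coactivator of NRF1 and the ERRs, had 8.19, 8.47 and 8.83 in failing hearts, against 9.02, 9.21 and 9.45 in control hearts, with no overlap and a difference of -0.76 ± 0.13 (adjusted p = 0.00988). Tfam, which packs mitochondrial DNA and helps to start its transcription, had a difference of -0.38 ± 0.12 (adjusted p = 0.046). Without control replicate 4, 5 of 12 were lower, beside 13.5%. Esrra and Polrmt, with -0.57 ± 0.19 and -0.63 ± 0.21, had an adjusted p of 0.0578 and 0.0532 with all hearts. Of the other factors whose motifs were searched above, Gabpa, Yy1 and Esrrg had differences of -0.04, -0.19 and -0.07 and were not called in either fit. The dim Nrf1 had a difference of the other sign, 0.17, and was not called with all hearts. Ppargc1a, with -0.39 ± 0.18 (adjusted p = 0.137 with all hearts), was not called in either fit. The mitochondrially encoded subunits were not analysed here.

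Other nuclear-encoded mitochondrial groups had median differences further below 0. Their counts stand beside 4.73% of all brighter genes lower with all hearts and 13.5% without control replicate 4. Of 41 brighter genes named Ndufa, Ndufb, Ndufc, Ndufs or Ndufv, complex I subunits and assembly factors (with Ndufa4 among them), 5 were lower with all hearts and 27 without control replicate 4, with a median difference of -0.31 and -0.41. Of the 4 complex II genes 0 and 3 were lower in the same fits, with medians of -0.30 and -0.40. Of 73 mitochondrial ribosomal protein genes 20 and 53 were lower, with medians of -0.33 and -0.43. Control replicate 4 was also the lowest control heart for 39 of the 41 complex I genes. Whether these groups differ from complex III, IV and ATP synthase was not tested.

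The level of bright genes at large and RNA quality were set beside the members. The 95th percentile of log2 intensity over all other genes was 12.15 to 12.22 in failing hearts, against 12.12 in control replicate 4 and 12.23 to 12.31 in the other 5 control hearts. Without control replicate 4 it did not overlap between the groups, and with it as a term limma called 0 of the 37 members (lowest adjusted p = 0.33) and 0 of the 7109 genes, so group and bright end of the scale cannot be told apart there. With all 12 hearts and that term, the median difference was -0.05 for complex III, 0.02 for complex IV and -0.02 for ATP synthase. Within the failing hearts the percentile did not follow the members' order, being 12.21 in replicate 6 and 12.20 in replicate 5. A closer measure was the median of the 127 other genes with a mean of 14 or more outside complexes I and II, each centred. These genes include all 9 measured cardiomyocyte markers, and also Dcn, Nppa and Hbb. Their level is therefore not a measure of the arrays alone, free of cell type. Their median was 0.06, 0.03, -0.18, 0.06, 0.12 and -0.20 in failing replicates 1 to 6. In control replicates 1 to 6 it was 0.07, 0.17, 0.08, -0.36, 0.13 and -0.04. Failing replicates 3 and 6 and control replicate 4 were thus the lowest hearts there, as for the members. Among these 127 genes the median difference was -0.03, and -0.10 without control replicate 4, where 18 (14.2%) were lower and 7 higher. The part of this shared variation in the members' differences was not tested. In the next class, means of 13 to 14, 28.5% of 214 genes were lower in that fit. The difference between 3' and 5' control probe sets, a measure of RNA quality, was 0.50 to 0.70 in failing hearts and 0.36 to 0.78 in control hearts, with control replicate 4 the lowest and failing replicates 3 and 6 at 0.53; its mean differed by -0.01 between the groups.

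Of 9 measured cardiomyocyte markers 0 were called with all hearts. Without control replicate 4, which was the lowest control heart for 9 of 9, 2 (Myh6 and Ckm) were lower, beside 13.5% of all brighter genes. The 9 markers had a median difference of -0.16, and -0.26 without that heart. Their summed intensity was 250228 to 387418 in failing hearts and 243594 to 396399 in control hearts. Of 8 fibroblast markers 2 were higher with all hearts (Dcn and Postn), beside 5.4% of all brighter genes. The 8 summed to 50226 to 107088 in failing hearts and 42524 to 68725 in control hearts. Of 5 brighter macrophage markers 3 were higher (Lyz2, C1qa and C1qb), beside the same 5.4%. The sum of all 7 was 16248 to 34837 in failing hearts and 10916 to 16639 in control hearts. Most of it was Lyz2, at 11333 to 22716 in failing hearts and 7169 to 12152 in control hearts. The dim Adgre1 had a difference of the other sign, -0.58. Skeletal muscle makes Cox6a2, Cox7a1 and Cox8b too, and of its 4 markers 1, Myh1, was among the brighter genes. Myh1 had a difference of -1.16 with all hearts (adjusted p = 0.0777) and -1.45 without control replicate 4 (adjusted p = 0.0124). The dim Myh2 and Tnni2 had 0.17 and 0.25 with all hearts, and 0.30 and 0.34 without that heart, and the dim Myh4 had -1.03 with all hearts. Brown fat makes Cox7a1 and Cox8b, and its 4 markers summed to 2892 to 5540 in failing hearts and 2640 to 5404 in control hearts. Nearly all of that sum was Cidea, at 2753 to 5472 in failing hearts and 2512 to 5333 in control hearts. Ucp1, Adipoq and Plin1 had intensities of 5.2 to 57.2 in failing hearts and 3.9 to 102.8 in control hearts, with differences of 0.83, -0.30 and -1.80. The part of these cell types in the members' differences was not tested.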

How the data were processed

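Total RNA from 12 rat hearts, 6 failing and 6 control, was measured on 1-colour 3' arrays, with groups and replicate numbers taken from the sample titles. The authors deposited 1 table of linear intensity values for 31099 probe sets, with 0 columns of other samples. RMA is named, without a version, in the submitters' processing notes, whereas the deposited intensity values are linear and share a trimmed mean of 500.19 to 500.23, so the summary method is unknown. Such scaling hides a shift common to all genes. No detection or saturation calls, scan dates or batches were used. Precision is limited by how few arrays there are.

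Each intensity was turned into its log2 with no offset. After 57 control probe sets were left out, 31042 remained, of which 20826 carried 1 symbol, 436 several and 9780 none. Members were named through that annotation, and 41 of 41 matched the RefSeq table of GRCr8, which also gave the promoter sequences. Failing minus control was estimated by lmFit and eBayes of limma 3.58.1 (R 4.3.3), with no term but the group, over all 14217 genes and over the 7109 brighter ones. P-values were adjusted after Benjamini and Hochberg and read at 0.05. SEs are the moderated SEs of the fit among the brighter genes, or over all genes for dim genes. Figures were drawn with matplotlib 3.10.9 in Python 3.11.15.

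The members, pathway and marker lists, motifs and tests were chosen with earlier results of these data known. Genes named with values are those called or not overlapping in either fit, the isoform pairs, Cyc1 and the lowest p of each complex, and called pathway genes. Regulators and markers named beyond these were chosen after their values were seen. Alternatives covered the dim filter, an offset of 32, quantile normalization, centring, variance model, array weights, the mean of probe sets, a rank-sum permutation test, the replicate block, an RNA quality term and leaving out each heart. The bright-end term, second left-out hearts and leaving Ndufa4 out of the assembly factors were added after the data were seen. So were the variance trend and robust fit and the RNA quality term in the fit without control replicate 4. The fits were tested on simulated data, drawn for each gene independently and with changes larger than those of the brighter members in either fit. That test therefore does not bear on small differences in genes that vary together.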

Additional observations from a re-analysis of the deposited data

Results flagged for a closer look

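Extreme hearts were looked for in 96 groups of 6 values (members, isoform pairs and complex medians), of which chance marks about 1 in 20. In 31 groups the highest or lowest heart lay far from the other 5, and in 30 of them it was control replicate 4, as the lowest. The genes share arrays, so these are not 30 separate events.

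For complex III, control replicate 4 had a log2 intensity of 14.09 for Cyc1, 13.71 for Uqcr11, 13.94 for Uqcrc1, 14.07 for Uqcrc2, 14.22 for Uqcrfs1, 14.31 for Uqcrh and 14.05 for Uqcrq. For complex IV it had 14.71 for Cox4i1, 14.35 for Cox5b, 14.67 for Cox6a2, 14.42 for Cox6b1, 14.46 for Cox6c and 9.45 for Cox7a1. It also had 12.44 for Cox7a2l, 14.56 for Cox7b, 13.99 for Cox7c and 14.46 for Cox8b. For ATP synthase it had 14.36 for Atp5f1a, 14.62 for Atp5f1c, 14.57 for Atp5mc3, 13.998 for Atp5mf, 14.04 for Atp5mg and 14.15 for Atp5mk. It further had 13.15 for Atp5mpl, 14.51 for Atp5pb, 14.22 for Atp5pd and 14.27 for Atp5po. Its centred medians were -0.39 for complex III, -0.40 for complex IV and -0.41 for ATP synthase. The other case was failing replicate 1, the highest failing heart for the inhibitor Atp5if1 at 12.38.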

How the results depend on the processing

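Over all genes 0 members were called with all hearts, and 1 was higher with array weights; leaving out each heart gave 0 to 3 lower and 0 to 1 higher. Among the brighter genes 0 were lower with all hearts, 1 with quantile normalization and 12 with array weights, and 0 to 13 when each heart was left out: 13 without control replicate 4, 2 without failing replicate 5 and 0 in the other 10 fits. The count of 13 without control replicate 4 was 6 with the replicate block, 22 with a variance trend and robust fit, 0 with the bright-end term, and 5 to 25 without a further heart. Quantile normalization, centring, array weights and the RNA quality term gave 9, 12, 19 and 9. Among all brighter genes with all hearts, centring gave 178 lower and 335 higher genes in place of 336 and 384, array weights 1052 and 862, the mean of probe sets 153 and 243, the bright-end term 32 and 26, and the rank-sum test 0 and 0. Of the 37 members 30 had a difference below 0 with quantile normalization, 34 with centring and 23 with the bright-end term. With the bright-end term and all hearts the medians were -0.05 for complex III, 0.02 for complex IV and -0.02 for ATP synthase. They stayed below 0 in the other alternatives run, at -0.34 to -0.16 for complex III, -0.25 to -0.10 for complex IV and -0.32 to -0.15 for ATP synthase when each heart was left out. Cox6a2 minus Cox6a1 turned positive without failing replicate 3 (0.0037), failing replicate 6 (0.0397) or control replicate 5 (0.02), with a range of -0.11 to 0.04. Cox8b minus Cox8a passed the test without failing replicate 1 (-0.39, adjusted p = 0.0433), with a range of -0.39 to -0.22. The change in Cox6b2 minus Cox6b1 passed in all leave-out tests (1.67 to 2.26), and that in Cox4i2 minus Cox4i1 in none (-0.18 to -0.08). The cause of these changes was not tested.

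The deviations of failing and control hearts of the same replicate number had correlations of 0.26, -0.02, -0.12, 0.06, 0.00 and -0.04. For replicates 1 and 4 this was above the highest correlation with another number (0.07 and 0.01), and for the rest below it. Whether hearts of the same number share more than the number cannot be told from these values. With all hearts the replicate block called 0 members. Other probe sets for the isoforms were not run, as no isoform has another. The depth limit is the dim end: Cox6b2 and Cox7b2 lie at intensities where small linear differences become wide on the log2 scale. A shift of all genes cannot be seen in arrays scaled alike, and the controls' strain and age are unknown.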

Other observations

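Markers of other cell types are given as values. Their counts stand beside 5.4% of all brighter genes higher with all hearts and 10.2% without control replicate 4. Of 4 measured endothelial markers 1, Vwf, was higher in failing hearts (difference 1.10, adjusted p = 0.0159), and 2 were higher without control replicate 4 (Vwf and Pecam1). With all hearts Pecam1 and Tek had differences of 0.51 and 0.13, and Kdr had one of the other sign, -0.12. Of 3 brighter smooth muscle markers 1, Tagln, was higher (difference 0.99, adjusted p = 0.0362). Of 3 brighter atrial markers and 2 blood markers 0 were called in limma in either fit, with 0 at an unadjusted p under 0.05 with all hearts. The atrial Myl7 had intensities of 142 to 3634 in failing hearts and 58.9 to 10679 in control hearts. Myl4 had 487 to 2562 and 165 to 6171 in the same order. With so wide a spread, the lack of a call does not show that atrial content was alike. Control replicate 4 was the highest control heart for both blood markers, Hbb at 15.11 (control median 14.62) and Alas2 at 12.85 (control median 9.52). Leaving it out moved the difference from 0.07 to 0.17 for Hbb and from -0.14 to 0.43 for Alas2. The 5 measured T, B and NK cell markers were all dim, with summed intensities of 73.3 to 230 in failing hearts and 123 to 841 in control hearts. The upper end was control replicate 4, where Ncr1 had an intensity of 656 against a control median of 23.05.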
